A study of Rattus norvegicus with 17 samples.

Results

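Liver and adipose tissue of Goto-Kakizaki (GK) and Brown-Norway (BN) rats were compared for the difference between the strains that was not shared by both tissues. For each probe on the array the quantity was the GK minus BN difference in liver minus the GK minus BN difference in adipose tissue, on the log2 scale, referred to here as the interaction. An interaction above 0 means that GK rats stood higher, relative to BN rats, in liver than in adipose tissue, and one below 0 means the opposite. It was taken from 16 of the 17 arrays and described for 6394 of the 22226 probes. Measured values chose both. The array labelled GK liver replicate 2 was left out because 10 kidney genes averaged a log2 value of 12.36 on it, against 4.13 to 4.69 on the BN liver arrays. A probe was included when its detection score, the rank of its signal among the negative control beads of its array, was above 0.99 on every array of at least 1 strain in both tissues. These values describe the selection and are used for nothing else.

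All animals were males of 7 months on standard chow, with no further treatment. GK is an inbred strain that becomes hyperglycaemic spontaneously and is used as a lean model of type 2 diabetes, and BN is an inbred strain with normal glycaemia. The arrays came from 5 BN and 4 GK adipose samples, 5 BN liver samples and 2 GK liver samples, each of 1 rat, whereas the growth protocol in the labels gives 4 rats of each strain. All 5 BN rats and 2 GK rats gave both tissues: the animal of GK liver replicate 1 also gave GK adipose replicate 2, that of GK liver replicate 3 also gave GK adipose replicate 4, and BN replicates carry the same number in both tissues. The strains differ throughout their genomes as well as in glycaemia, so genotype and diabetes cannot be told apart, and the samples were whole tissue, so fewer cells of a type and less RNA per cell cannot be told apart. Probe sequences were not used here, and whether a strain variant under a probe lowers its signal was not tested.

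Liver and white adipose tissue divide the handling of nutrients between them. The liver builds fatty acids, cholesterol and glucose, strips nitrogen from amino acids and oxidises xenobiotics, while adipose tissue stores fatty acids as triglyceride and releases them between meals. The genes of fatty acid and sterol synthesis are switched on by the SREBP transcription factors, which act together with NF-Y, a factor that binds CCAAT boxes, and insulin and sterol levels set their activity.

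The tissue labels were checked against marker genes. Over 12 hepatocyte genes the mean log2 value was 14.66 to 15.44 on the liver arrays and 4.24 to 7.64 on the adipose arrays, the highest of these being GK adipose replicate 1, on which 10 of the 12 genes were above background. Over 11 adipocyte genes it was 12.02 to 12.55 in adipose tissue and 6.72 to 7.06 in liver, where Adipoq, the gene of the adipocyte hormone adiponectin, was above background on no array. Over 14 genes of the skeletal muscle list, in which Myo1a stood in for Myh1, GK adipose replicate 2 reached 9.59, against 4.09 to 7.70 on the other adipose arrays. Kidney genes lay between 3.69 and 4.94 on all 16 arrays, but their level chose these arrays, so this is not part of the check. Between 7315 and 8651 probes per array were above background. The part of these admixtures in the results was not tested, and counts without GK adipose replicates 1 and 2 are given beside the overall count.

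Of all 22226 probes, 417 (1.88%) passed an adjusted p of 0.05 for the interaction in limma's moderated test with rat as a random block. Among the 6394 probes above background 184 passed (2.88%), 104 with an interaction above 0 (1.63%) and 80 below 0 (1.25%). Of these 184, 114 were above background on all 16 arrays, out of 5653 such probes. The other 70 came from 741 probes that had entered through 1 strain in at least 1 tissue. A strain difference makes such an entry more likely, so their count is not read as a result. Among the genes named below, these 70 include Scd, Acsl3, Loxl1, Hmgn1, Nfib, Cd2bp2, Rpl30, Washc3, Rfc2 and Ankra2. They also include Chrnb1, Cbs, Nr1i3, Ces2c, Cela1, Ifi47, Tmod1, Cxcl13, Casp12 and Eln. The interaction ranged from -6.13 to 6.77 among the 184, 80 of them exceeded a 4-fold change (log2 over 2), and the median standard error over the probes above background was 0.286. The adjusted p nearest the threshold was 0.0499 inside it and 0.0526 outside it. In the same model 355 probes (5.55%) differed between strains in liver and 422 (6.6%) in adipose tissue. Without GK adipose replicates 1 and 2, 107 probes passed for the interaction, and with the left-out array added back 108 passed.

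The 2 GK liver arrays did not weigh equally. GK liver replicate 1 lay more than 1 log2 unit from the BN liver mean at 780 of the 6394 probes, and GK liver replicate 3 at 363. Without replicate 1, 104 probes passed, 74 above 0 and 30 below 0, and 96 of them belonged to the 184. Without replicate 3, 438 passed, 106 above 0 and 332 below 0, and 156 of them belonged to the 184. With either array alone, 79 of the 184 passed both times. GK liver replicate 1 was the only array of the series on its slide. So were BN liver replicates 1, 4 and 5, BN adipose replicates 4 and 5 and GK adipose replicate 2. The animal of GK liver replicate 3 shared its slide with BN replicate 3 in liver and in adipose tissue. Within that matched pair all 184 interactions had the sign of the fit, as did 4434 of the 6210 probes above background that had not passed. The pair is part of the fit that chose the 184, so nothing further is read from this agreement.

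The 184 probes fell into groups by which tissue carried the strain difference. In 77 the difference passed in liver and not in adipose tissue, 45 being lower and 32 higher in GK liver, with a median absolute difference of 1.82 log2 units in liver and 0.319 in adipose tissue. In 79 it passed in adipose tissue and not in liver, 54 lower and 25 higher in GK rats, with a median of 1.97 in adipose tissue and 0.494 in liver. Restricted to probes above background on every array these classes held 53 and 47 probes, with median absolute differences of 1.58 in liver for the first and 1.56 in adipose tissue for the second. Of all 184, in 14 it passed in both tissues in the same direction with unequal size, in 6 it passed in both with opposite directions, and in 8 it passed in neither although the interaction did. These counts include the 70 probes set aside above. Gene symbols were available for 146 of the 184 probes, each a different gene. At the level of genes, 1 probe for each of 5054, 146 passed for the interaction (2.89%), 86 above 0 (1.7%) and 60 below 0 (1.19%). The strain difference passed for 121 genes higher (2.39%) and 173 lower (3.42%) in GK liver, and for 210 lower (4.16%) and 125 higher (2.47%) in GK adipose tissue.

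**Figure D1:**
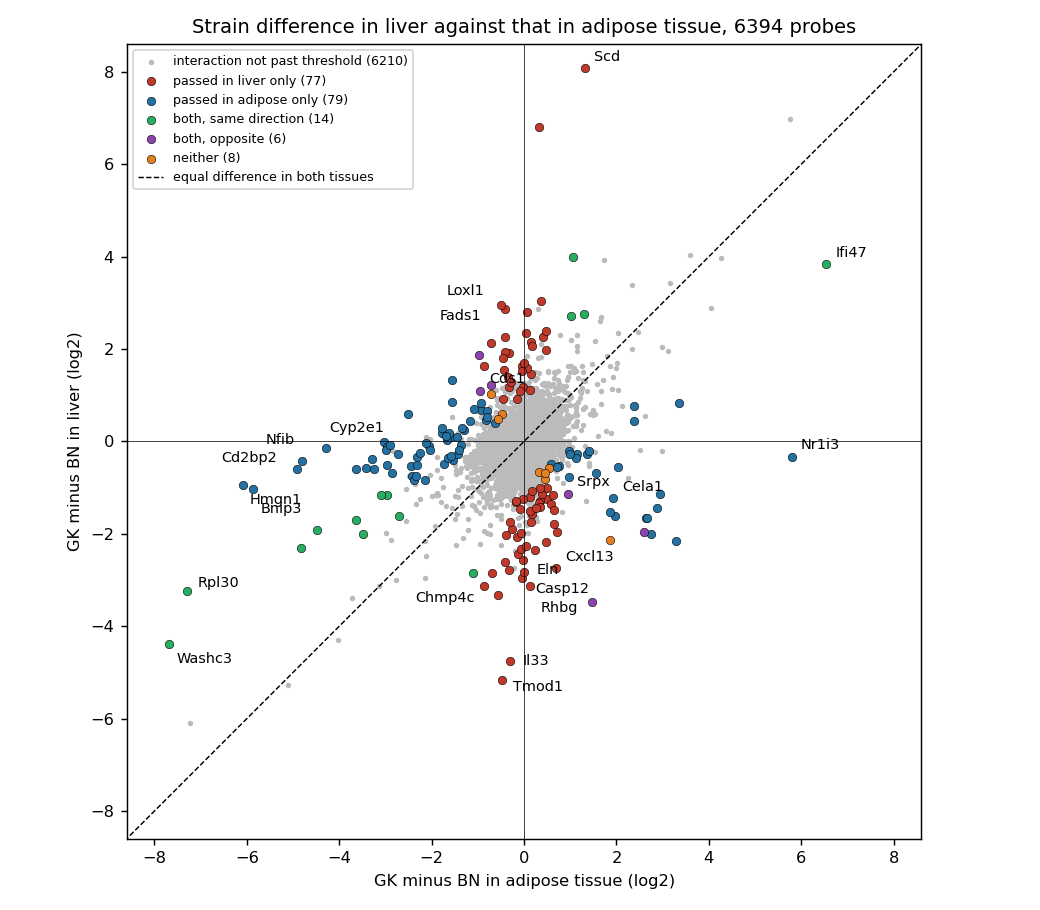
GK minus BN difference in liver (y axis, log2) against the same difference in adipose tissue (x axis, log2) for the 6394 probes above background, 1 point per probe, with the 184 probes past the interaction threshold coloured by the tissue in which the strain difference passed. Most coloured points lie near an axis and away from the diagonal of equal differences, 77 of them with a difference that passed in liver and 79 in adipose tissue.

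Several genes of lipid synthesis rose in GK liver while their difference in adipose tissue did not pass. Scd, stearoyl-CoA desaturase, which makes monounsaturated fatty acids, had the highest interaction of the named genes. It met the detection rule in liver through GK rats, in which it was higher, and so belongs to the probes set aside above. Its log2 values in BN liver were 7.69, 5.75, 5.99, 5.44 and 5.52, the last 2 not above background, and in GK liver 14.54 and 13.73. In adipose tissue it read 13.70, 10.43, 12.52, 10.90 and 14.21 in BN rats and 13.97, 13.60, 14.74 and 12.36 in GK rats. The groups were far apart in liver and overlapped in adipose tissue, where BN rats alone spread over nearly 4 log2 units. The strain difference was 8.08 ± 0.92 (SE) in liver, 271-fold, with an adjusted p of 7.83e-05, and 1.31 ± 0.73 in adipose tissue with 0.481, which gave an interaction of 6.77 ± 1.16 with 0.00537. Within rats, liver minus adipose tissue was 1.37 and 0.939 in the 2 GK rats and -8.69 to -4.68 in the 5 BN rats. Without GK liver replicate 1 the Scd interaction was 6.35 and its adjusted p 0.0648, and with the left-out array added back they were 4.64 and 0.261.

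Fads1, the delta-5 desaturase of polyunsaturated fatty acid synthesis, had a much narrower spread. It read 10.85, 10.26, 10.21, 10.17 and 10.30 in BN liver and 12.97 and 13.45 in GK liver. In adipose tissue the values were 8.55, 8.53, 8.55, 8.37 and 8.81 in BN rats and 8.33, 8.27, 7.83 and 8.15 in GK rats, so that every GK rat lay above every BN rat in liver and below every BN rat in adipose tissue. In liver GK rats were higher by 2.85 ± 0.23, 7.23-fold, with an adjusted p of 3.12e-06. The adipose difference of -0.42 ± 0.18 did not pass (adjusted p 0.327), and the interaction was 3.27 ± 0.29 with an adjusted p of 2.86e-05. With the left-out array added back the Fads1 interaction was 1.97 and its adjusted p 0.340. Acly, which releases acetyl-CoA from citrate for lipid synthesis, rose from 9.07, 9.08, 8.92, 8.86 and 9.06 in BN liver to 9.96 and 11.12 in GK liver, without overlap, while adipose values were 8.17, 8.63, 8.57, 8.69 and 9.60 in BN and 8.11, 8.34, 8.34 and 8.39 in GK rats and overlapped. Its interaction was 1.98 ± 0.41 (adjusted p 0.0202), and 1.40 with an adjusted p of 0.0762 without GK liver replicate 3. Acsl3, which joins fatty acids to coenzyme A, had an interaction of 2.00 ± 0.36 (adjusted p 0.00767). It read 7.91 and 8.004 in GK liver against 5.27 to 6.27 in BN liver, where 2 of 5 arrays were not above background, and 7.08 to 7.97 over both strains in adipose tissue.

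In the cholesterol pathway 3 genes passed. Idi1, the isomerase that prepares isoprenoid units, read 9.48, 8.06, 7.75, 7.85 and 8.04 in BN liver and 9.96 and 11.21 in GK liver. Its adipose values were 6.09, 6.22, 6.20, 6.79 and 7.13 in BN and 6.44, 6.26, 6.68 and 6.70 in GK rats. Liver groups did not overlap, although BN liver replicate 1 came close to GK liver replicate 1, and adipose groups overlapped. The liver difference was 2.35 ± 0.44 (adjusted p 0.00642) and the interaction 2.32 ± 0.56, with an adjusted p of 0.0464 that passed in 11 of 29 alternative analyses. Without GK liver replicate 3 the Idi1 interaction was 1.69 with an adjusted p of 0.137, and the threshold was also missed, at adjusted p-values of 0.0571 to 0.0969, without any 1 of 12 other arrays (BN adipose or BN liver replicates 2 to 5, GK adipose replicates 1 to 4). Msmo1, the sterol oxidase that removes methyl groups, read 11.01, 9.81, 9.29, 9.29 and 9.43 in BN liver and 11.56 and 12.47 in GK liver, with an interaction of 2.66 ± 0.54 (adjusted p 0.0164) that became 2.20 with an adjusted p of 0.0587 without GK liver replicate 3. Fdft1, squalene synthase, read 9.53, 9.70, 9.52, 9.51 and 9.35 in BN liver and 10.33 and 11.26 in GK liver, again without overlap. Its interaction of 1.56 ± 0.38 sat at the threshold with an adjusted p of 0.0499 and passed in 9 of the 29 alternatives, and without GK liver replicate 3 it was 1.09 with an adjusted p of 0.142. The Fdft1 call was also lost, at adjusted p-values of 0.0622 to 0.0986, without any 1 of 13 other arrays (all but BN adipose replicate 1 and GK liver replicate 1).

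**Figure D2:**
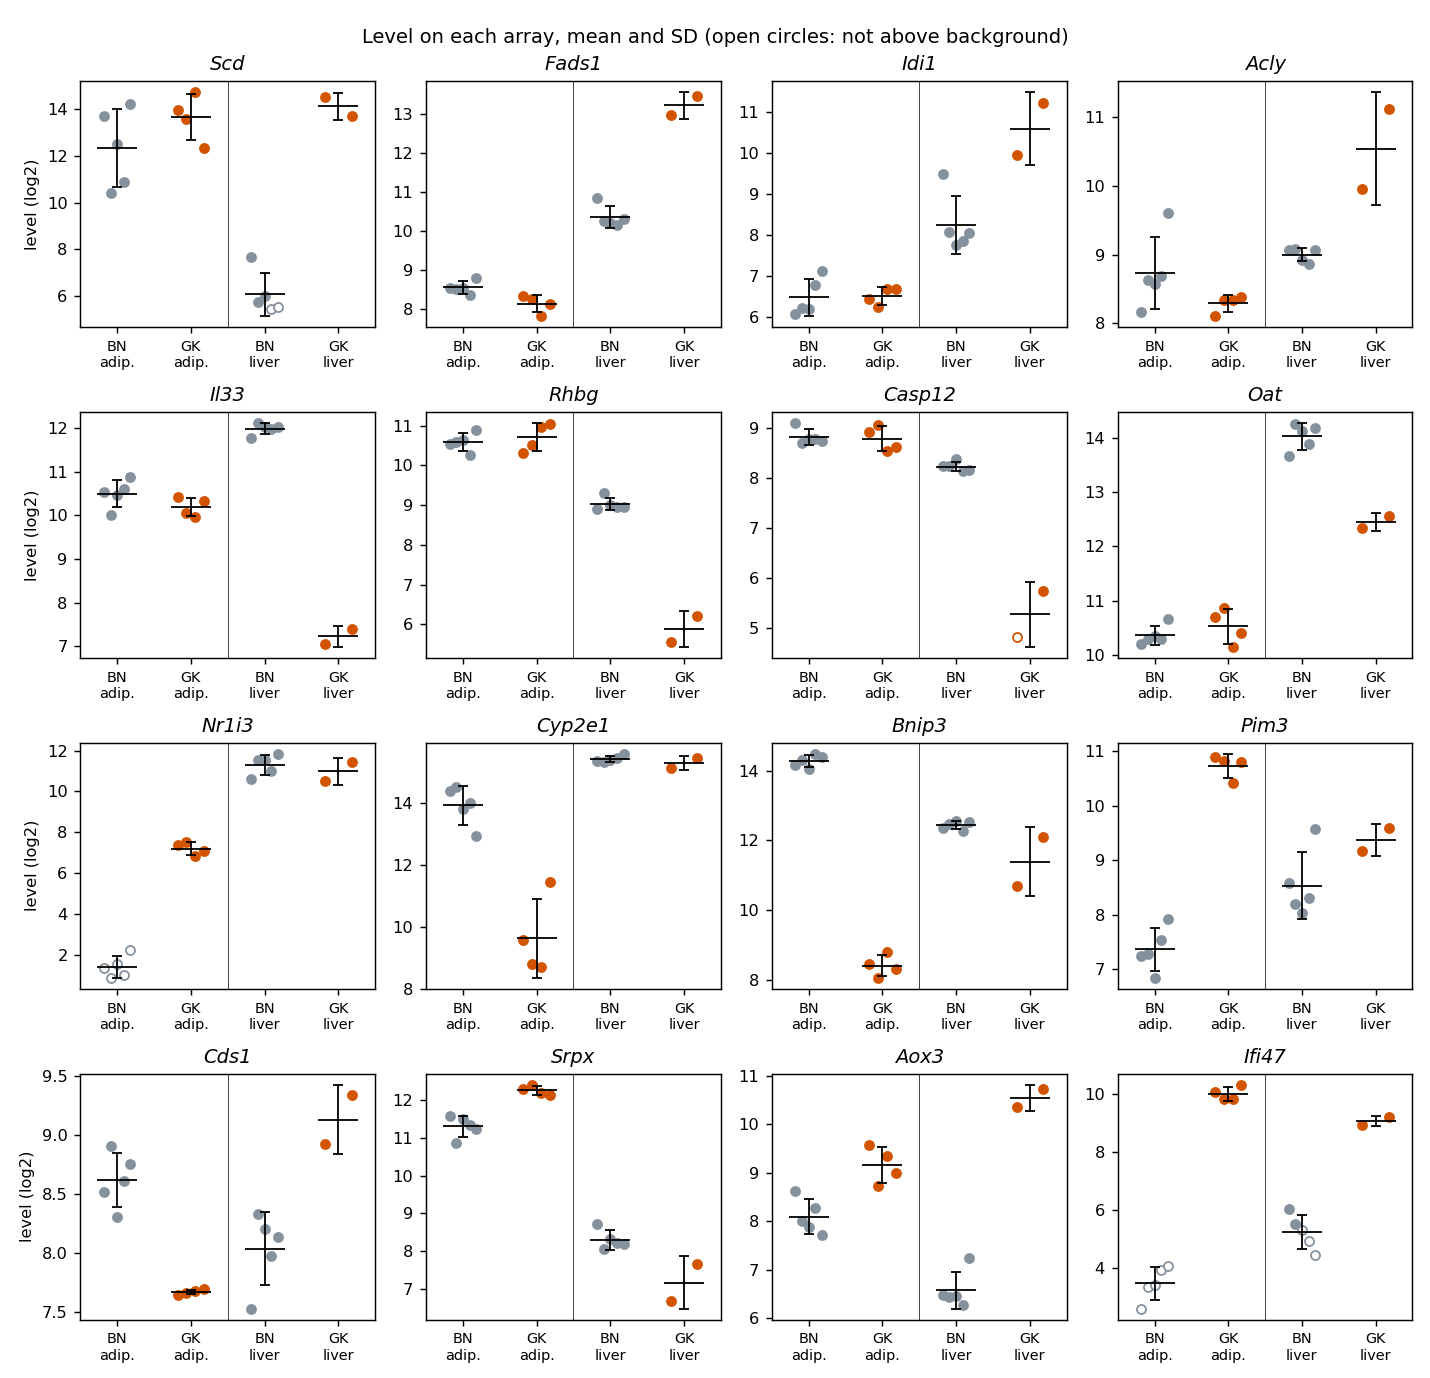
Log2 normalised signal (y axis) of 16 named genes on each array, grouped by strain and tissue (x axis), with 1 circle per array, bars for the mean and SD, and open circles where the probe was not above background. Scd and Fads1 separate the strains in liver, Bnip3 and Pim3 in adipose tissue, and Cds1 and Srpx in both tissues in opposite directions.

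Read as lists, 11 of 14 measured genes of fatty acid synthesis and desaturation were above background, and 4 of these passed for the interaction, all above 0, where 1.7% of all genes did. The list median was 1.15 against -0.06 over all genes. In liver 6 genes were higher in GK rats, where 2.39% of all genes were, and 0 lower, and in adipose tissue 1 was higher (2.47% of all genes) and 0 lower. Among the 9 genes above background on every array the median was 1.09 and 2 passed. Scd and Acsl3 met the detection rule in liver through GK rats, in which they were higher. Of the 16 measured genes of cholesterol synthesis and LDL uptake 12 were above background and 3 passed, all above 0, with a median of 1.47. In liver 7 of them were higher in GK rats and 0 lower, and every GK value was above every BN value in 7, as in 10.5% of all genes above background. In adipose tissue 1 was higher and 0 lower, with every GK value above every BN value in 3 genes (7.12% of all genes) and below in 1 (9.85%). Per array, the median of the cholesterol genes relative to the BN liver mean was 0.79 on GK liver replicate 1 and 1.45 on replicate 3, and 0.39 on BN liver replicate 1, the highest BN array. The fatty acid genes had medians of 1.39 and 1.26 on the 2 GK liver arrays. In storage and breakdown of the same lipids 0 genes passed as higher in GK liver. Of the genes of triglyceride storage and lipolysis 3 were lower there, where 3.42% of all genes were, and of those of fatty acid oxidation and ketogenesis 0. Of 17 genes of triglyceride storage and lipolysis and 16 of fatty acid oxidation and ketogenesis above background, 0 passed for the interaction in limma's test (3 and 1 at an unadjusted p under 0.05), with medians of -0.13 and -0.03. Over all 6394 probes above background 1035 reached that unadjusted p.

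Promoters of 3 of these genes are shown because members of both lists rose in the same tissue. They are the 250 bases before the annotated start in RefSeq for the rat assembly GRCr8, in the direction of transcription, with every CCAAT box, read on either strand as CCAAT or ATTGG, in capitals.
Fads1 (chr1:216252442-216252691, plus strand): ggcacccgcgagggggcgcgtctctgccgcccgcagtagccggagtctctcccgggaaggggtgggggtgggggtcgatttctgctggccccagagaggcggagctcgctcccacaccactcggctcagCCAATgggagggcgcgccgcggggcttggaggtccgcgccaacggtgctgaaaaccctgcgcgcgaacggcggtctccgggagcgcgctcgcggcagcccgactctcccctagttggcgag
Idi1 (chr17:66547525-66547774, minus strand): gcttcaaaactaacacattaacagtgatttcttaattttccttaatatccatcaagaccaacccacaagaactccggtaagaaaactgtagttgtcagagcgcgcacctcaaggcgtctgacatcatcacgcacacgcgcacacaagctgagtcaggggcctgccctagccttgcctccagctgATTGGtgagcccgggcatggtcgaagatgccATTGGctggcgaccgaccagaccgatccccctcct
Msmo1 (chr16:29746863-29747112, plus strand): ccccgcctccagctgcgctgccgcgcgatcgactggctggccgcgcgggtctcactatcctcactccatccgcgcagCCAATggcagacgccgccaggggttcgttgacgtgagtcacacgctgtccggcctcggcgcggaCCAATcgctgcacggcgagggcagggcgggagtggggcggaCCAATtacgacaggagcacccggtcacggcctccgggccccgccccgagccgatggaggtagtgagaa
The window of Fads1 holds 1 such box, that of Idi1 holds 2 and that of Msmo1 holds 3, while Acly and Acsl3 hold 1 each and Scd holds 0. Over windows of 300 bases, which add the first 50 transcribed bases, 16 of the 20 genes of both lipid lists with a promoter in the table held a CCAAT box (80%), against 12549 of 33469 promoters in all (37.5%) and 1664 of the 4293 genes above background (38.8%). The amino acid genes described below held it in 7 of 11 promoters (63.6%). Of the genes past the interaction threshold with a promoter in the table, 4 of 4 amino acid genes held it. So did 3 of 4 fatty acid genes and 2 of 2 cholesterol genes, so the box was not particular to the lipid lists. The classical sterol regulatory element TCACNCCAC, or GTGGNGTGA on the other strand, was in 0 of these 20 windows and in 374 of all 33469 (1.12%). With 0 such elements the motifs nowhere overlap. A match describes letters only, and a window without a match says nothing of the factor.

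Of 15 genes of amino acid breakdown above background, 8 were lower in GK liver and 0 higher, where 3.42% and 2.39% of all genes were. The hepatocyte gene mean was also lower on both GK liver arrays, at 14.66 and 15.10, than on the BN liver arrays, at 15.13 to 15.44. The amino acid list shares Cps1, Tat and Hpd with the hepatocyte list, and the part of that difference in these genes was not tested. Got1, cytosolic aspartate aminotransferase, read 13.63, 13.65, 13.81, 13.57 and 13.54 in BN liver and 12.31 and 12.50 in GK liver. In adipose tissue its values were 8.82, 8.18, 8.48, 8.62 and 8.57 in BN and 9.09, 9.37, 8.79 and 8.91 in GK rats. Liver groups were separated by over 1 log2 unit, and in adipose tissue 3 of the 4 GK values lay above every BN value. Got1 fell by 1.24 log2 units in liver (adjusted p 0.00269) with an interaction of -1.74 ± 0.26 (adjusted p 0.00196). Oat, ornithine aminotransferase, read 13.67, 14.26, 14.13, 13.88 and 14.19 in BN liver and 12.33 and 12.57 in GK liver, where it was lower by 1.58 log2 units (adjusted p 0.000877). Adipose values were 10.19, 10.29, 10.35, 10.29 and 10.66 in BN and 10.69, 10.86, 10.15 and 10.39 in GK rats and overlapped, and the interaction was -1.75 ± 0.29 (adjusted p 0.00451). Gls2, the liver glutaminase, read 12.68, 13.17, 13.25, 13.16 and 12.97 in BN liver and 11.51 and 11.93 in GK liver, with an interaction of -1.65 ± 0.34 (adjusted p 0.0191) that became -1.44 with an adjusted p of 0.170 without GK liver replicate 1. Gpt, alanine aminotransferase, and Sdsl, a serine dehydratase-like enzyme, which were picked after their values were seen, had interactions of -1.53 and -1.47.

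The member of the list that passed above 0 was Cbs, cystathionine beta-synthase, the entry to transsulfuration of homocysteine, and its strain difference lay in adipose tissue. Cbs read 9.37, 9.02, 8.53, 9.02 and 8.41 in BN adipose tissue and 6.44, 6.22, 5.17 and 6.23 in GK adipose tissue, without overlap and with 1 GK array not above background. In liver it read 11.95, 12.28, 12.27, 12.38 and 12.34 in BN rats and 11.25 and 11.89 in GK rats. It was lower by 2.85 log2 units in GK adipose tissue (adjusted p 6.8e-06), -0.68 ± 0.33 in liver (adjusted p 0.315), and the interaction was 2.17 ± 0.42 (adjusted p 0.0128). With neqc, another background correction, the Cbs interaction was 0.46 (adjusted p 0.330). Over the list, 15 of 28 measured genes were above background, 5 passed below 0, where 1.19% of all genes did, and 1 above 0, where 1.7% did, and the median interaction was -0.63. In liver 13 of the 15 had both GK values below every BN value, as had 14.3% of all genes above background. In adipose tissue 3 genes were lower (4.16% of all genes) and 0 higher (2.47%), and every GK value was below every BN value in 4 (9.85% of all genes) and above in 1 (7.12%). All 5 genes that passed below 0 were above background on every array. Both GK liver arrays lay on the same side, with list medians of -1.33 and -0.77 relative to the BN mean. BN liver replicate 1, at a median of -0.30, also had 0 of 15 genes above that mean, as both GK liver arrays had.

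**Figure D3:**
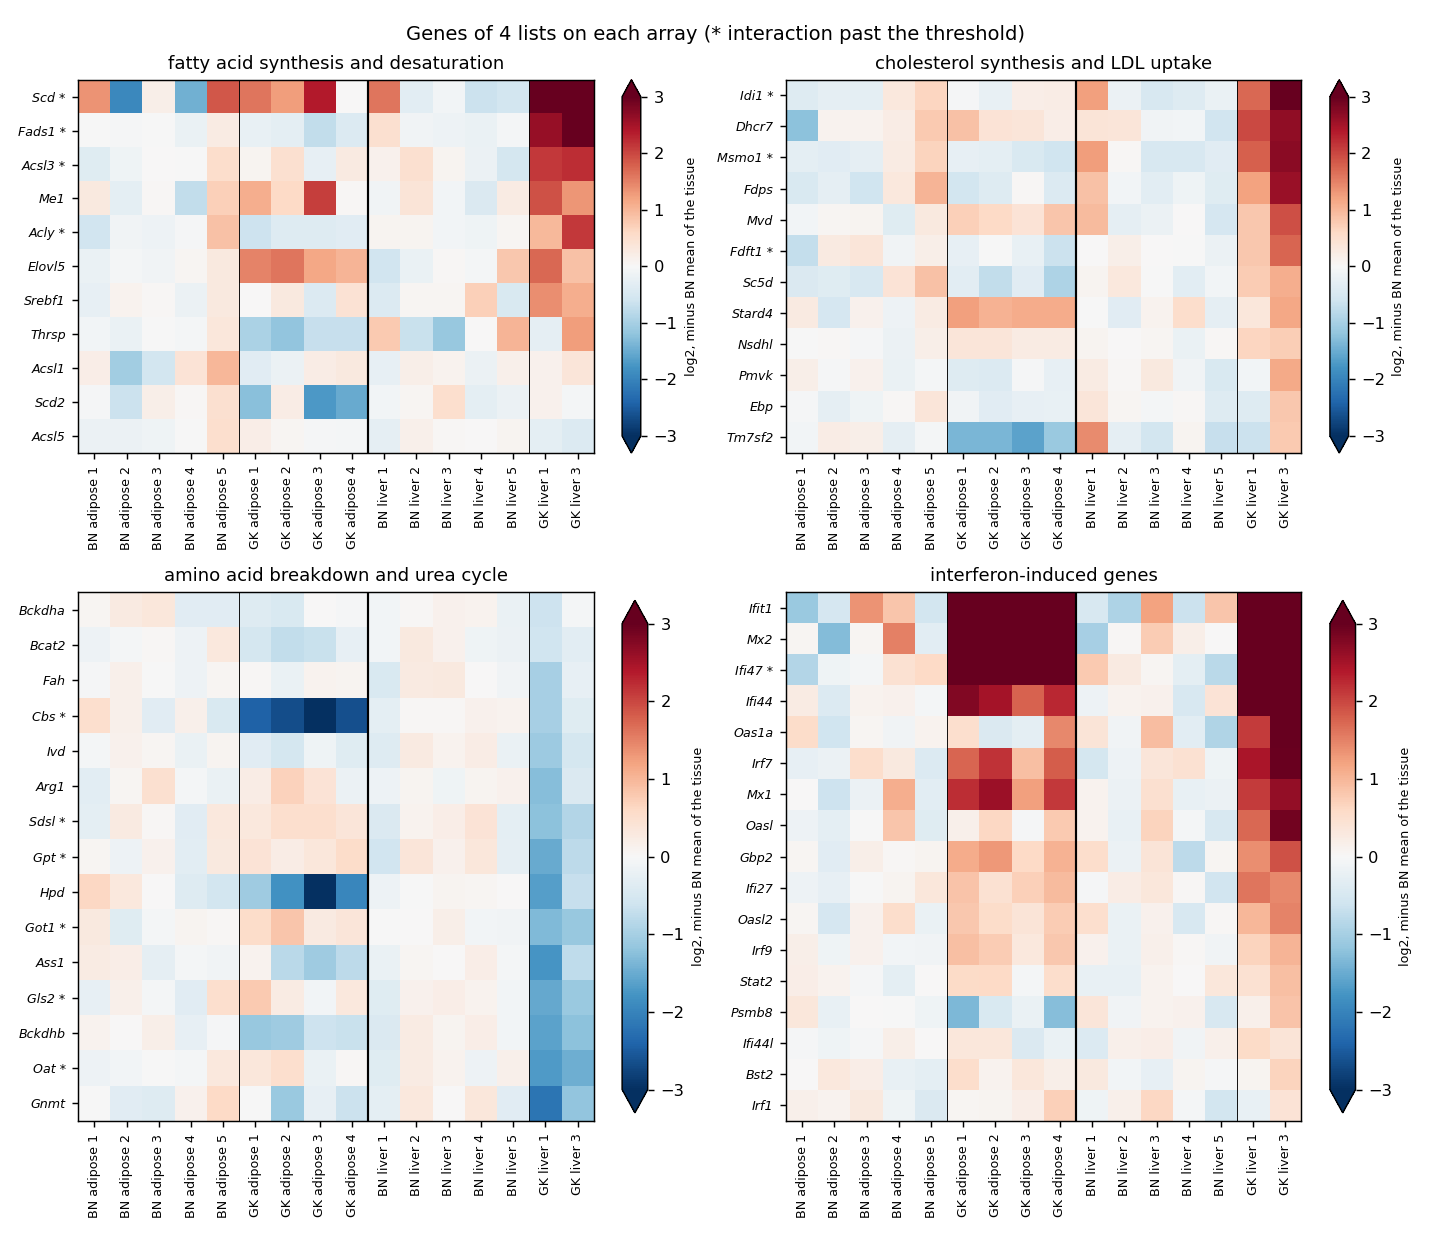
Heat maps of 4 gene lists, fatty acid synthesis, cholesterol synthesis, amino acid breakdown and interferon-induced genes, with 1 row per gene above background and 1 column per array, coloured by the log2 value minus the BN mean of the same tissue on a scale from -3 to 3, with a star beside genes past the interaction threshold. The amino acid genes lie below the BN mean on both GK liver arrays, the lipid genes mostly above it there, and the interferon-induced genes mostly above it in both tissues.

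Several genes outside these pathways fell in GK liver while their difference in adipose tissue did not pass. Il33, a cytokine stored in nuclei and released from damaged cells, read 11.78, 12.12, 12.03, 11.97 and 12.03 in BN liver and 7.06 and 7.40 in GK liver. In adipose tissue it read 10.54, 10.001, 10.47, 10.61 and 10.87 in BN rats and 10.41, 10.05, 9.97 and 10.33 in GK rats. Over 4 log2 units separated the liver groups, and the adipose groups overlapped. Il33 was 27.1-fold lower in GK liver (log2 -4.76 ± 0.23, adjusted p 3.1e-08), -0.31 ± 0.18 in adipose tissue (adjusted p 0.52), and the interaction was -4.45 ± 0.29 with an adjusted p of 1.19e-06. A further Il33 probe was not above background on any array.

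Rhbg, an ammonium transporter, read 8.91, 9.30, 9.01, 8.95 and 8.96 in BN liver and 5.57 and 6.21 in GK liver. The adipose values were 10.54, 10.58, 10.63, 10.26 and 10.90 in BN and 10.31, 10.52, 10.96 and 11.05 in GK rats. Liver groups were far apart while adipose groups overlapped, with a liver difference of -3.14 ± 0.25, 8.81-fold (adjusted p 3.09e-06), and an interaction of -3.27 ± 0.31 (adjusted p 4.58e-05). Casp12, a caspase of the endoplasmic reticulum, read 8.25, 8.24, 8.38, 8.14 and 8.17 in BN liver and 4.81 and 5.73 in GK liver, the first of these not above background. Its adipose values spanned 8.54 to 9.11 over both strains, and the interaction was -2.93 ± 0.30 (adjusted p 6.71e-05). Il33, Rhbg and Casp12 were above background on every BN array, and Casp12 passed in all 29 alternatives. Casp12 met the detection rule in liver through BN rats, in which it was higher, and belongs to the probes set aside above. With the left-out array added back the interaction of Il33 was -3.17 (adjusted p 0.0926) and that of Rhbg -1.93 (adjusted p 0.374).

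Tmod1, which caps the slow-growing end of actin filaments, read 8.18, 8.17, 7.68, 8.12 and 7.27 in BN liver and was not above background on either GK liver array, a difference of at least 8.01-fold. In adipose tissue it read 8.44, 6.92, 7.41, 7.37 and 6.81 in BN and 6.46, 8.40, 6.47 and 6.29 in GK rats, with the highest GK value on replicate 2, the array with the highest muscle genes. The fitted interaction, taken against values not above background, was -4.68 ± 0.66 (adjusted p 0.00124), and it was -0.37 with neqc (adjusted p 0.380) and -1.31 with quantile normalisation (adjusted p 0.0659). Cxcl13, a chemokine that draws B cells into lymphoid follicles, read 5.99, 6.64, 7.23, 7.43 and 7.97 in BN liver and was not above background on either GK liver array, at least 4.5-fold lower. Its adipose values were 11.29, 10.21, 10.35, 10.51 and 10.69 in BN and 11.27, 11.01, 11.18 and 11.73 in GK rats and overlapped, and the fitted interaction was -3.42 ± 0.53 (adjusted p 0.00274), or -1.13 with neqc (adjusted p 0.0861). Chmp4c, a subunit of the ESCRT machinery that cuts membranes, read 8.85, 10.28, 10.36, 10.03 and 9.85 in BN liver and 5.98 and 7.12 in GK liver, with an interaction of -2.76 ± 0.47 (adjusted p 0.00516) that became -2.19 with an adjusted p of 0.0701 without GK liver replicate 1.

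Eln, the gene of elastin, read 6.01, 7.81, 7.50, 7.68 and 8.10 in BN liver and was not above background on either GK liver array, at least 5.81-fold lower. Loxl1, the oxidase that cross-links elastin, read 7.13 and 7.62 in GK liver against 3.71, 5.000, 5.31, 4.64 and 3.52 in BN liver, where 3 of 5 arrays were not above background. In adipose tissue Eln was 8.06 to 9.20 and Loxl1 7.98 to 9.12 over both strains, and both sets of values overlapped. The interaction was -2.84 ± 0.57 for Eln (adjusted p 0.016) and 3.45 ± 0.52 for Loxl1 (adjusted p 0.00203). That of Eln was -0.31 with neqc (adjusted p 0.536), -1.04 with quantile normalisation (adjusted p 0.0652) and -2.82 without GK liver replicate 1 (adjusted p 0.101). Among 19 genes of collagens and matrix that met the detection rule these were the members that passed, and Fbn1 and Lox, which also serve elastic fibres, did not, at 0.10 and -0.08. Eln and Loxl1 met the rule in liver through the strain in which they were higher, and of the 15 genes above background on every array 0 passed. The list median was -0.21, and 10 of the 19 reached an unadjusted p under 0.05, as did 1035 of all 6394 probes above background.

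The next genes fell in GK adipose tissue while their difference in liver did not pass. Bnip3, a mitochondrial protein that marks mitochondria for removal, read 14.16, 14.31, 14.05, 14.48 and 14.40 in BN adipose tissue and 8.46, 8.07, 8.81 and 8.33 in GK adipose tissue. In liver it read 12.37, 12.47, 12.57, 12.27 and 12.52 in BN rats and 10.69 and 12.10 in GK rats. The adipose groups were over 5 log2 units apart, and the GK liver values lay below every BN liver value by a much smaller margin. Bnip3 was 58.2-fold lower in GK adipose tissue (log2 -5.86 ± 0.24, adjusted p 1.07e-09) and -1.04 ± 0.30 in liver (adjusted p 0.0727), with an interaction of 4.83 ± 0.37 (adjusted p 6.67e-06). Cyp2e1, the cytochrome P450 that oxidises ethanol and ketone bodies, read 14.41, 14.52, 13.80, 14.004 and 12.93 in BN adipose tissue and 9.58, 8.82, 8.69 and 11.46 in GK adipose tissue, where it was 19.7-fold lower. Its liver values were 15.35, 15.34, 15.41, 15.47 and 15.59 in BN and 15.14 and 15.47 in GK rats, which overlapped, and the interaction was 4.15 ± 0.72 (adjusted p 0.00602). In the pair of animals that shared slides the Cyp2e1 interaction was 2.39.

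Hmgn1, which binds nucleosomes, was at 10.56, 10.45, 10.49, 11.40 and 11.59 in BN adipose tissue and not above background on any GK adipose array, at least 50.5-fold lower, whereas in liver it read 12.17, 12.47, 12.37, 12.17 and 12.18 in BN rats and 11.09 and 11.56 in GK rats, which lay below every BN value. The interaction was 5.15 ± 0.40 (adjusted p 6.67e-06). Nfib, a transcription factor of the nuclear factor I family, was at 10.34, 10.16, 10.04, 10.67 and 10.96 in BN adipose tissue and 5.64, 5.09, 6.06 and 5.69 in GK adipose tissue, the third of these being the array above background, and in liver at 10.50 to 11.07 in BN and 10.69 and 9.93 in GK rats, the first within the BN range and the second below it. Its interaction was 4.40 ± 0.40 (adjusted p 3.11e-05). Cd2bp2, a protein of the splicing machinery, was at 9.62, 9.70, 9.48, 9.92 and 10.05 in BN adipose tissue and not above background on any GK adipose array, at least 22.8-fold lower, and its liver values were 9.92 to 10.30 in BN and 9.46 and 9.49 in GK rats. Its interaction was 4.31 ± 0.26 (adjusted p 8.28e-07). Bnip3, Hmgn1, Nfib and Cd2bp2 passed in all 29 alternatives. Of these, Hmgn1, Nfib and Cd2bp2 met the detection rule in adipose tissue through BN rats, in which they were higher. They belong to the probes set aside above. The alternative limited to probes above background on all 16 arrays is not among the 29 and could not test Hmgn1, Nfib or Cd2bp2.

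Other genes rose in GK adipose tissue. Nr1i3, the constitutive androstane receptor, a xenobiotic sensor of liver, was not above background on any BN adipose array and read 7.35, 7.53, 6.84 and 7.06 in GK adipose tissue, at least 3.78-fold higher. In liver it read 10.59, 11.53, 11.55, 11.03 and 11.84 in BN and 10.52 and 11.44 in GK rats, which overlapped. The fitted interaction, taken against values not above background, was -6.13 ± 0.49 (adjusted p 9.29e-06), and with neqc it was -0.50 (adjusted p 0.400). Hepatocyte genes, which averaged 7.64 on GK adipose replicate 1 and 4.24 to 5.60 on the other adipose arrays, include no Nr1i3, and their part in its level was not tested. Pim3, a serine/threonine kinase of the early growth response, read 7.25, 7.29, 6.85, 7.55 and 7.92 in BN adipose tissue and 10.90, 10.81, 10.41 and 10.80 in GK adipose tissue, 10.3-fold higher and without overlap (adjusted p 2.28e-06). In liver it read 8.59, 8.19, 8.03, 8.30 and 9.57 in BN and 9.17 and 9.58 in GK rats and overlapped through BN replicate 5. Its interaction was -2.52 ± 0.45 (adjusted p 0.00726) and, without GK liver replicate 1, -2.31 with an adjusted p of 0.0820. Cela1, a pancreatic-type elastase, read 8.01, 8.56, 6.70 and 7.71 in GK adipose tissue and was above background on 1 of 5 BN adipose arrays, at 6.88, with an interaction of -3.15 ± 0.56 (adjusted p 0.00726) that became -3.16 with an adjusted p of 0.0558 without GK liver replicate 1. In liver Cela1 read 11.31 to 12.20 in BN rats and 10.65 and 10.71 in GK rats, all brighter than in adipose tissue. Both GK liver values lay below every BN value, by -1.22 ± 0.44 in the fit (adjusted p 0.164). No other pancreatic acinar gene met the detection rule, and the mean log2 value of all 8 was 4.09 to 5.30 in adipose tissue and 4.79 to 5.57 in liver. The part of acinar cells in the level of Cela1 was not tested, nor was that of the hepatocyte genes on GK adipose replicate 1.

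Genes that handle reactive and foreign compounds moved in both directions in adipose tissue. Cbr1, a carbonyl reductase that also acts on prostaglandins, read 10.65, 9.82, 9.67, 10.15 and 10.15 in BN and 12.26, 12.11, 12.60 and 12.87 in GK adipose tissue, higher by 2.37 ± 0.23 (adjusted p 1.04e-05), with an interaction of -1.93 ± 0.36 (adjusted p 0.0104) that became -1.97 with an adjusted p of 0.0639 without GK liver replicate 1. Ces2c, a carboxylesterase, read 5.50, 6.77, 6.27, 6.45 and 6.69 in BN, the first not above background, and 8.46, 8.38, 8.47 and 8.16 in GK adipose tissue, with an interaction of -2.59 ± 0.43 (adjusted p 0.0046). Gstt1, a glutathione transferase, was lower in GK adipose samples at 9.05, 10.06, 8.92 and 8.99 against 10.55, 10.90, 10.96, 10.68 and 10.98 in BN rats, with an interaction of 2.40 ± 0.37 (adjusted p 0.00274). In none of these 3 genes did adipose groups overlap, and none of the liver differences passed, at 0.45 ± 0.29 for Cbr1, -0.56 ± 0.34 for Ces2c and 0.84 ± 0.30 for Gstt1. With neqc the Ces2c interaction was -1.001 (adjusted p 0.0558). Of 23 xenobiotic genes that met the detection rule, 2 passed above 0 (Cyp2e1 and Gstt1), where 1.7% of all genes did, and 2 below 0 (Nr1i3 and Ces2c), where 1.19% did, with a median of -0.13. Nr1i3 and Ces2c met the rule in adipose tissue through GK rats, and among the 20 genes above background on every array 2 passed above 0 and 0 below 0.

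Opposite strain differences that passed in both tissues were found for 6 probes, and Cds1 and Srpx are the 2 that the naming rule took up. Cds1, which makes CDP-diacylglycerol for phosphoinositides, read 7.53, 8.33, 8.20, 7.98 and 8.13 in BN liver and 8.92 and 9.34 in GK liver. In adipose tissue it read 8.52, 8.91, 8.31, 8.61 and 8.75 in BN rats and 7.64, 7.66, 7.67 and 7.69 in GK rats. Every GK value was above every BN value in liver and below every BN value in adipose tissue. The differences were 1.10 ± 0.23 in liver (adjusted p 0.0129) and -0.95 ± 0.18 in adipose tissue (adjusted p 0.00721), with an interaction of 2.05 ± 0.29 (adjusted p 0.00115). Srpx, a sushi-repeat protein of the cell surface and matrix, was the reverse, with 8.71, 8.04, 8.31, 8.21 and 8.18 in BN and 6.67 and 7.65 in GK liver. Its adipose values were 11.59, 10.87, 11.50, 11.35 and 11.25 in BN and 12.30, 12.42, 12.21 and 12.14 in GK rats, again without overlap in either tissue. Srpx differed by -1.13 ± 0.27 in liver (adjusted p 0.0283) and 0.95 ± 0.21 in adipose tissue (adjusted p 0.0202), with an interaction of -2.08 ± 0.34 (adjusted p 0.00359). With rat as a fixed block the interaction was 2.04 for Cds1 (adjusted p 0.0589) and -2.095 for Srpx (adjusted p 0.0872).

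Among the genes that differed the same way in both tissues by unequal amounts, Aox3, an aldehyde oxidase, was higher in GK rats and more so in liver. It read 6.48, 6.44, 6.44, 6.27 and 7.23 in BN and 10.35 and 10.74 in GK liver, and 8.62, 8.005, 7.87, 8.27 and 7.71 in BN and 9.56, 8.74, 9.34 and 8.999 in GK adipose tissue, without overlap in either. The differences were 3.98 ± 0.31 in liver and 1.06 ± 0.25 in adipose tissue, and the interaction was 2.92 ± 0.39 (adjusted p 0.000759). Rpl30, a ribosomal protein gene, and Washc3, a subunit of the WASH complex on endosomes, were lower in GK rats in both tissues and above background on no GK adipose array. Rpl30 read 9.85 and 10.94 in GK liver against 13.29 to 13.78 in BN liver, and was at least 50.4-fold lower in GK adipose tissue. Washc3 read 5.81 and 7.63 in GK liver against 10.94 to 11.24 in BN liver, and was at least 50.9-fold lower in GK adipose tissue. Their interactions were 4.07 ± 0.59 and 3.31 ± 0.61, with adjusted p-values of 0.00146 and 0.00857. With neqc that of Rpl30 was 0.26 (adjusted p 0.878), and with quantile normalisation it was 1.52 (adjusted p 0.104). The other named genes of this kind had interactions of 1.93 ± 0.26 for Zcchc9, 2.57 ± 0.36 for Rfc2, 1.93 ± 0.30 for Cd1d1, -1.74 ± 0.29 for Slc35c2, 2.52 ± 0.52 for Ankra2 and 1.71 ± 0.36 for Chrnb1. Without GK liver replicate 1 the adjusted p of Ankra2 was 0.0941 (interaction 2.62) and that of Chrnb1 0.102 (interaction 1.76). Ankra2 was above background on no GK adipose array, and its direction turned with neqc (-0.24) and quantile normalisation (-0.17), while on the deposited log2 values it was 0.54 and with vsn fitted to each tissue 0.73. Rfc2 was above background on no GK adipose array and on 1 of 2 GK liver arrays, so its interaction was taken against values not above background. It was at least 4.46-fold lower in GK adipose tissue and 3.77-fold lower in GK liver. With neqc the interaction of Rfc2 was 0.15 (adjusted p 0.0622) and that of Cd1d1 0.89 (adjusted p 0.0778).

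Many interferon-induced genes were higher in GK rats in both tissues. Of 17 above background, 12 were higher in GK liver (2.39% of all genes) and 8 in GK adipose tissue (2.47%), with 0 lower in either. Both GK liver values exceeded every BN value in 14 of 17 genes (10.5% of all genes), and in adipose tissue every GK value exceeded every BN value in 9 (7.12%). The interaction was above 0 in 15 of the 17, against 2214 of all 5054 genes, with a median of 0.61. An unadjusted p under 0.05 was reached by 7, against 1035 of all 6394 probes above background. The adjusted threshold was passed by 1, with an interaction below 0, and by 0 of the 12 genes above background on every array. The gene that passed was Ifi47, an interferon-inducible GTPase, which was not above background on any BN adipose array and read 10.06, 9.84, 9.82 and 10.32 in GK adipose tissue, at least 26.6-fold higher. In liver it read 6.02, 5.51, 5.30, 4.95 and 4.44 in BN rats, with the last 3 not above background, and 8.94 and 9.21 in GK rats, 14.2-fold higher. Ifi47 met the detection rule in both tissues through GK rats, in which it was higher. The fitted interaction was taken against BN adipose values not above background. Its interaction of -2.71 ± 0.51 (adjusted p 0.0104) became -2.58 with an adjusted p of 0.0867 without GK liver replicate 1. Genes of the list that did not pass included Ifit1, with strain differences of 6.97 in liver and 5.76 in adipose tissue and an interaction of 1.21 ± 0.811 (adjusted p 0.555), which is picked here after its values were seen.

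In the remaining lists few or no genes passed for the interaction, which does not show that none differed. Of 18 glycolysis and gluconeogenesis genes, 10 genes of the clock list, 5 bile acid and steroid genes, 6 insulin signalling genes, 22 genes of oxidative phosphorylation and 18 of endoplasmic reticulum stress above background, 0 passed in limma's test, and at an unadjusted p under 0.05 there were 3, 2, 3, 0, 1 and 1, in that order. Over all 6394 probes above background 1035 reached that unadjusted p. Their median interactions were 0.00, 0.12, -0.53, -0.14, -0.21 and -0.05. Pim3 was the gene that passed among 13 immediate early genes (median -0.23), and Cbr1 among 10 eicosanoid genes (median -0.13). Values nearest to passing included Cidea, a lipid droplet protein, with an interaction of -1.75 ± 0.49 (adjusted p 0.0935) and a liver difference of -2.25 ± 0.39 (adjusted p 0.00328), and Gbe1, the glycogen branching enzyme, with 1.09 ± 0.32 (adjusted p 0.112) and 1.10 ± 0.25 (adjusted p 0.0228).

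Liver minus adipose tissue within each animal gave the interaction without the other GK adipose arrays. For all 184 probes the 2 GK rats lay outside the range of the 5 BN rats, as they did for 1323 of the 6394 probes above background (20.7%), and since the test used the same contrast nothing further is read from it. A two-sided exact permutation test of 2 rats against 5 cannot give a p below 0.0952. The 2 GK rats were close to each other for Il33, at -2.93 and -2.998 against 1.16 to 2.11 in BN rats. They were close for Rhbg too, at -4.84 and -4.95 against -1.94 to -1.28. They stood apart for Cyp2e1, at 4.01 and 6.32 against 0.812 to 2.66, and for Washc3, at 4.30 and 1.62 against -0.0372 to 0.384.

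**Figure D4:**
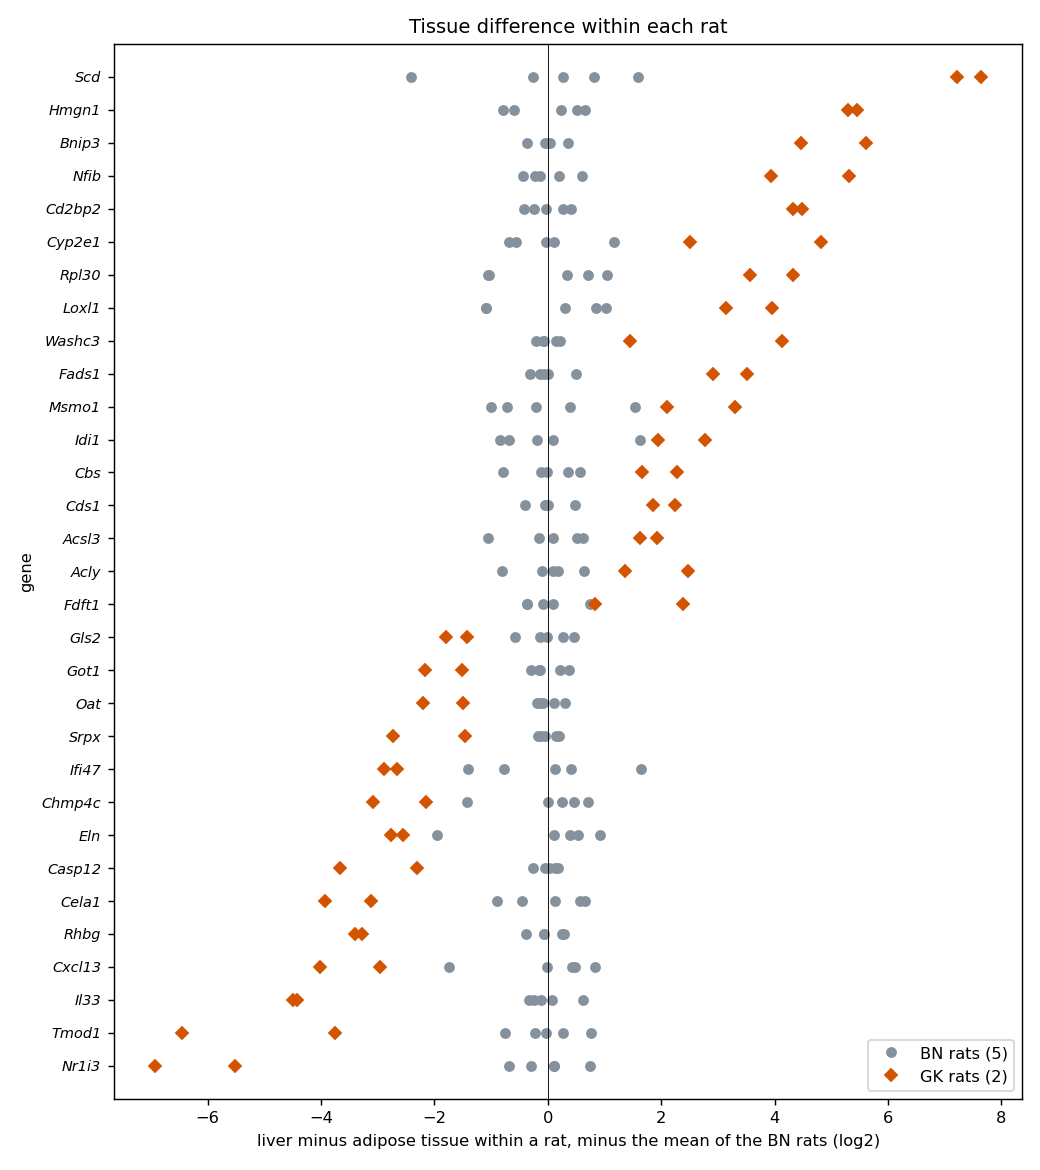
Liver minus adipose log2 value within each of the 7 rats that gave both tissues, less the mean of the 5 BN rats (x axis, log2), for named genes (y axis), with 1 point per rat. For every gene drawn the 2 GK rats lie outside the range of the 5 BN rats, on the side of the interaction's sign.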

How the data were processed

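Total RNA of each tissue sample was hybridised to an Illumina RatRef-12 bead array. The authors deposited, per array, the mean bead signal of each probe as an intensity and a Detection score between 0 and 1, and separately a table of log2 values that they had made by subtracting the mean of the negative controls and applying vsn within each tissue. Here the deposited intensity was used: the negative control mean was subtracted and all 16 arrays were normalised together with a reimplementation of vsn (least trimmed squares quantile 0.9, 7 iterations, 5 slices), since the interaction needs both tissues on 1 scale. Fitted separately by tissue, it differed from the deposited log2 values by a median of 0.0111 in adipose tissue and 0.0098 in liver. Log2 here means the variance-stabilised scale, which compresses changes near background against plain log2. It still gave larger interactions than neqc for Nr1i3 (-6.13 against -0.50), Tmod1 (-4.68 against -0.37) and Rpl30 (4.07 against 0.26), each with a group not above background. Probes were named through the platform annotation (13650 with 1 symbol, 8576 with none), and 13610 gene IDs were found in RefSeq. List names were also matched through synonyms. By this Hlf of the clock list was matched to Epas1 and Myh1 of the muscle list to Myo1a, which are other genes.

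limma 3.58.1 (statmod 1.5.0, R 4.3.3) was fitted to all 22226 probes with 4 groups of strain and tissue and rat as a random block, the rat being given in the labels (within-rat correlation 0.0357), and Benjamini-Hochberg adjustment ran over all probes. Error terms after ± are standard errors of the fit. Other steps ran in Python 3.11.15 (pandas 2.3.3, scipy 1.17.1, numpy 2.4.6). A fold against a group not above background on any array is a lower bound taken from the dimmest probe above background. The number of arrays limits the precision. The normalisation and the fit were tested on simulated data. There the fit found 19% of 100 interactions of 1 log2 unit and 85% of 100 of 2 log2 units, with 9 false calls. The simulated noise was independent between arrays, with 1 spread per probe. It had no rat or slide effect and no GK liver array that stood apart, so these rates need not hold for the real arrays. Nothing says the samples of a strain came from separate litters or days, and p-values measure the spread between these rats.

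Named genes were the 10 highest and 10 lowest interactions past the threshold with a symbol, up to 10 genes whose strain differences passed in both tissues in either arrangement, and up to 4 genes of each pathway list that passed (up to 2 nearest to passing where none did). The members and lists were chosen with earlier results of these data known. Alternatives covered the background correction and normalisation, the probes tested, the arrays, the blocks and each array left out in turn. Columns of per-sample values that matched no sample numbered 0.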

Additional observations from a re-analysis of the deposited data

Results flagged for a closer look

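Within groups of 4 or 5 arrays, 16 of 177 gene and group combinations held 1 array far from the others, and chance flags about 1 in 20 groups. BN liver replicate 1 stood apart for 6 genes. It was high for Scd (7.69), Fads1 (10.85), Idi1 (9.48) and low for Eln (6.01), Cbs (11.95) and Trib3 (6.17). In BN liver, replicate 2 was high for Rhbg (9.30) and replicate 5 for Aox3 (7.23). In BN adipose tissue, replicate 5 was high for Cela1 (6.88), replicate 1 for Casp12 (9.11) and replicate 4 stood apart for Ndufb8 (12.11). GK adipose replicate 2, the array with the highest skeletal muscle genes, stood apart for Tmod1 (8.40), Aldoa (13.2) and Gstt1 (10.06). In GK adipose tissue, replicate 3 was high for Ankra2 (2.44, not above background) and replicate 4 stood apart for Cyp4a1 (7.80).

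The strain difference itself differed between the tissues for 184 probes by the test of the interaction. Cds1 (interaction 2.05) and Srpx (interaction -2.08) had strain differences that passed in both tissues with opposite signs. On the array labelled GK liver replicate 2, which was left out, the kidney genes averaged 12.36, against 4.13 to 4.69 on the BN liver arrays.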

How the results depend on the processing

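Direction was stable where calls were not. Of the 184 probes, 178 to 184 kept their sign under each alternative that tested all of them, as did all 114 tested where only probes above background on every array entered, 79 passed without each array in turn, and 18 passed under all 29 alternatives. Among named genes past the threshold the sign turned under these 29 for Ankra2 alone, at -0.24 with neqc and -0.17 with quantile normalisation. In the pair of rats on shared slides it turned for Dbp (0.13) and Gsk3b (0.10), which had not passed. The calls of Fdft1 and Idi1 were lost most often, and neqc left Rpl30 (0.26), Nr1i3 (-0.50) and Tmod1 (-0.37) short of the threshold. Signals near background and 2 GK liver arrays limit all of this, and the cause of each change in count was not tested.

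In the following series the counts are, in order, for all probes, for probes above background, for those above 0 and below 0, for the classes liver, adipose tissue, both the same way, both opposite and neither, for the strain difference in liver and in adipose tissue, and for pathway list members. A count within 1.5 times the one reported is left out of a series, and the classes are then named. The reported counts were 417, 184, 104, 80, 77, 79, 14, 6, 8, 355, 422 and 22. With neqc they were 998, 485, 237, 248, 195, 201, 39, 17, 33, 558, 1040 and 38. With quantile normalisation they were 1040, 549, 272, 277, 202, 210, 47, 32, 58, 717, 1145 and 40. On the deposited log2 values they were 782, 300, 168 and 132, then 142 (liver), 32 (same way), 17 (opposite), 22 (neither), 607 (strain, liver) and 34 (lists). With vsn fitted to each tissue they were 757, 343, 191 and 152, then 145 (liver), 31 (same way), 21 (opposite), 33 (neither), 585, 744 and 37.

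With p-values adjusted over probes above background alone, 471 passed, 218 above and 253 below 0, with classes of 206, 144, 41, 32 and 48, strain counts of 842 and 934, and 44 list members. Over probes above background on all 16 arrays alone, 346 passed, 158 above and 188 below 0, with 157 (liver), 22 (same way), 18 (opposite) and 42 (neither), and strain counts of 626 and 738. With all 17 arrays, 232 of all probes and 108 above background passed, 62 above and 46 below 0, with 44 (liver), 48 (adipose), 3 (opposite) and 3 (neither), 242 for the strain in adipose tissue and 13 list members. Without GK adipose replicates 1 and 2 the counts were 235, 107, 64 and 43, with 50 (liver), 39 (adipose) and 7 (same way), 180 for the strain in adipose tissue and 13 list members. Restricted to the 7 rats with both tissues they were 263, 117, 66 and 51, with 44 (adipose), 9 (same way) and 2 (opposite), and 186 for the strain in adipose tissue. With a trended, robust variance 310 probes above background passed, 154 below 0, with 140 (liver), 30 (same way), 17 (opposite) and 26 (neither), and strain counts of 598 and 654.

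Rat paired the tissues. Without the replicate block 396 of all probes and 177 above background passed, and with rat as a fixed replicate block, which uses the 7 paired rats alone, 103 and 48, of which 26 above and 22 below 0 and 5 list members. With the fixed block the call was lost for Cds1, Srpx, Cyp2e1, Loxl1, Washc3, Rpl30, Cxcl13, Eln, Chmp4c, Ifi47, Zcchc9, Slc35c2, Ankra2 and Chrnb1. It was also lost for Acly, Acsl3, Msmo1, Idi1, Fdft1, Got1, Oat, Cbs, Gls2, Gstt1 and Cbr1. With slide as a random block, 458 and 199 passed. The alternative of the pair on shared slides was added after the data were seen.

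Leaving out 1 array at a time gave 193 to 1220 of all probes, 104 (without GK liver replicate 1) to 438 (without GK liver replicate 3) above background, 74 to 106 above 0 and 30 to 332 below 0. The classes ranged over 42 to 303, 45 to 76, 9 to 19, 3 to 13 and 4 to 29, the strain counts over 161 to 778 in liver and 283 to 469 in adipose tissue, and the list members over 18 to 25. Without GK liver replicate 1 the median interaction moved by 0.12, and without replicate 3 it fell by 0.12.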
